A study of Mus musculus with 5 samples.

Results

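The genes described here are 10 genes of the Hippo-YAP pathway: the coactivator genes Yap1 and Wwtr1, the DNA-binding partner genes Tead1 and Tead3, the upstream regulator genes Lats2, Amotl2 and Ajuba, and the target genes Ctgf, Cyr61 and Ankrd1. They were taken by symbol from the 23478 genes of the deposited table, and all 10 were found. The RNA came from GFP-sorted lung cells of P6 mouse pups that had been given 100 µg of tamoxifen per pup on P0 and on P1. Every pup carried Gli1creER and the Rosa-EGFP reporter, which Cre switches on. The 2 Control libraries came from pups that were Igf1r Flox/Wildtype, and the 3 Igf1r-deleted libraries, named Mutant in the labels, came from pups that were Igf1r Flox/Flox. Control cells could thus lose 1 copy of Igf1r themselves, and Igf1r-deleted cells both. Gli1 drives Cre mainly in lung fibroblasts, the mice were kept on a mixed background, and the sex and the number of pups behind a library are not given in the sources used here. The comparison asks whether loss of the IGF1 receptor, a tyrosine kinase for insulin-like growth factors, goes with a change in the transcripts of this pathway.

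In the Hippo pathway, the kinases MST and LATS phosphorylate the coactivators YAP (Yap1) and TAZ (Wwtr1), which are then held in the cytoplasm or degraded. On stiff matrix or under tension YAP and TAZ enter the nucleus, bind TEAD transcription factors and raise the transcription of their target genes. Much of this control acts on the proteins, so transcript levels of Yap1 and Wwtr1 do not report their activity, and the target genes are the usual transcript readout. In the lung, YAP and TAZ take part in the response of fibroblasts and epithelial cells to stretch and matrix.

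TEAD factors bind a core of 6 bases, GGAATG on one strand and CATTCC on the other. To show where this core lies near these genes, the 250 bases before each transcript start in RefSeq (build GRCm38.p6, the same assembly as mm10) were searched on both strands. Windows were at hand for 8 of the 10 genes, all but Ctgf and Tead1. The core was in at least 1 window of 7 of the 8 genes (87.5%), against 1487 of the 11270 tested genes with a window (13.2%). Of 16 other genes known as YAP and TEAD targets, 4 had it (25%). Counted by window, it was in 9 of 12 windows of these genes and in 11.1% of the windows of tested genes. The CArG box, to which SRF binds, was in none of the 12 windows and in 1.22% of the windows of tested genes. The core is a match of letters, and no binding was measured.

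The windows of the targets Cyr61 and Ankrd1 and of the regulators Amotl2 and Ajuba are printed to show the core in its sequence context. Capitals mark the core. They lie at chr3:145649986-145650235 on the minus strand for Cyr61, chr19:36119845-36120094 on the minus strand for Ankrd1, chr9:102717554-102717803 on the plus strand for Amotl2 and chr14:54577662-54577911 on the minus strand for Ajuba. The Amotl2 and Ankrd1 windows lie inside the GENCODE gene models, whose starts are farther upstream than those of RefSeq.
Cyr61: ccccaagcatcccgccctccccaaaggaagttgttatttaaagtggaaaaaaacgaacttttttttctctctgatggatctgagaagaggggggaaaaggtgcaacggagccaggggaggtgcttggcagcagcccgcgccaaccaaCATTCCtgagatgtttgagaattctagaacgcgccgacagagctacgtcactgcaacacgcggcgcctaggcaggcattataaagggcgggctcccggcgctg
Ankrd1: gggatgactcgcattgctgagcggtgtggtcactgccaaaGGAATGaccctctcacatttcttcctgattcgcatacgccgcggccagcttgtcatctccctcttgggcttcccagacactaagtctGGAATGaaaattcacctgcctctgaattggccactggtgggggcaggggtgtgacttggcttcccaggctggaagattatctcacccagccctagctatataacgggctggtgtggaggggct
Amotl2: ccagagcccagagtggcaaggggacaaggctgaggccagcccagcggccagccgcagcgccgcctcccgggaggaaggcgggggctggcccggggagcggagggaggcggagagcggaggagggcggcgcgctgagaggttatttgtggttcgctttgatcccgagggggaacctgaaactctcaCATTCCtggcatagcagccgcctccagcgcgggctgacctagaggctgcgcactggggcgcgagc
Ajuba: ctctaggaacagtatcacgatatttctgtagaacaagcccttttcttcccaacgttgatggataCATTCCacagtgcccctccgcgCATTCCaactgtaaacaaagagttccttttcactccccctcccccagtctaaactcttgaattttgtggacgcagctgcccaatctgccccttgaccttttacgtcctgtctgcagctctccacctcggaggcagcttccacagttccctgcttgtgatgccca
The Cyr61 window has 1 core, which begins 103 bases before the start. Ankrd1 has 2, at 210 and 123 bases, and Ajuba has 2, at 186 and 164 bases. The core of Amotl2 begins 65 bases before the start. In the windows that are not printed, Yap1 had a core at 141 bases, Wwtr1 1 core in each of 2 windows, and Tead3 3 cores over 2 windows, while Lats2 had none.

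Library totals were 35116766 to 37597857 counts, and levels are given as CPM, counts divided by the library total and edgeR's TMM factor (0.961 to 1.06), so that libraries of unlike depth can be compared. Igf1r, on mm10 chromosome 7 from 67952827 to 68233668, checks the genotypes. Both Control libraries stood at 324 CPM, and the Igf1r-deleted replicates 1, 2 and 3 at 140, 177 and 194 CPM. The difference was −0.93 on the log2 scale (SE 0.14), with a Benjamini-Hochberg adjusted p = 0.354 in the quasi-likelihood F test of edgeR, or 1.06e-05 in DESeq2's Wald test, the range over all alternatives being 1.06e-05 to 0.9996. All 8 fibroblast markers were present in every library, among them Pdgfra at 479.6 to 684 CPM. The 8 summed to 24315 to 26181 CPM in Control and 19498 to 25666 CPM in Igf1r-deleted libraries. Of them, 7 had a log2 fold change below 0 and 1 above 0 (median −0.19). Markers of other cells were also present, and none was at 0. Sftpc, of alveolar type II cells, had 233 to 552 CPM, above Pdgfra in Control replicate 2 and Igf1r-deleted replicate 2, and Lyz2, of myeloid cells, had 142 to 379 CPM. The 11 epithelial markers summed to 877 to 913 CPM in Control and 437 to 972 CPM in Igf1r-deleted libraries, the 8 endothelial markers to 497 to 505 and 251 to 709 CPM, and the 8 hematopoietic markers to 347 to 534 and 186 to 429 CPM. All 3 sums were lowest in Igf1r-deleted replicate 3. Summed pericyte markers were 563 to 608 and 533 to 605 CPM, and mesothelial markers 444 to 450 and 341 to 454 CPM. Control replicate 1 stood apart in glucocorticoid-response genes, such as Fkbp5 with 183 CPM there against 26.9 CPM in Control replicate 2 and 12.9 to 27.5 CPM in the others. All 10 genes of that list had a log2 fold change below 0 (median −1.94, or −0.98 without Control replicate 1). The part of these differences in the results was not tested. In bulk RNA, fewer cells of a type and less RNA per cell cannot be told apart.

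None of the 10 transcripts could be shown to differ between the genotypes. Of them, 5 had a log2 fold change below 0 and 5 above 0, with a median of 0.049 against 0.015 over the 15298 genes tested. For 8 of them it was smaller than 0.25 in size, as for 60.1% of all genes tested. None of the 10 passed an adjusted p of 0.05 in edgeR's quasi-likelihood test, where 0% of all genes did, and none an unadjusted p of 0.05, where 12.4% did (1897 genes). In DESeq2's Wald test, 1.70% of the 11735 genes with an adjusted p were called (200 genes), none of them among the 10. Ankrd1 was given no adjusted p there, and the smallest among the others was 0.453. None of the 10 had an unadjusted DESeq2 p under 0.05. The genotypes did not overlap for Wwtr1 and Lats2, which is 2 of 10 genes, where 31.0% of all genes did not overlap. Splits of 5 libraries into 2 and 3 number 10, so no exact permutation p can be below 0.1.

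**Figure D1:**
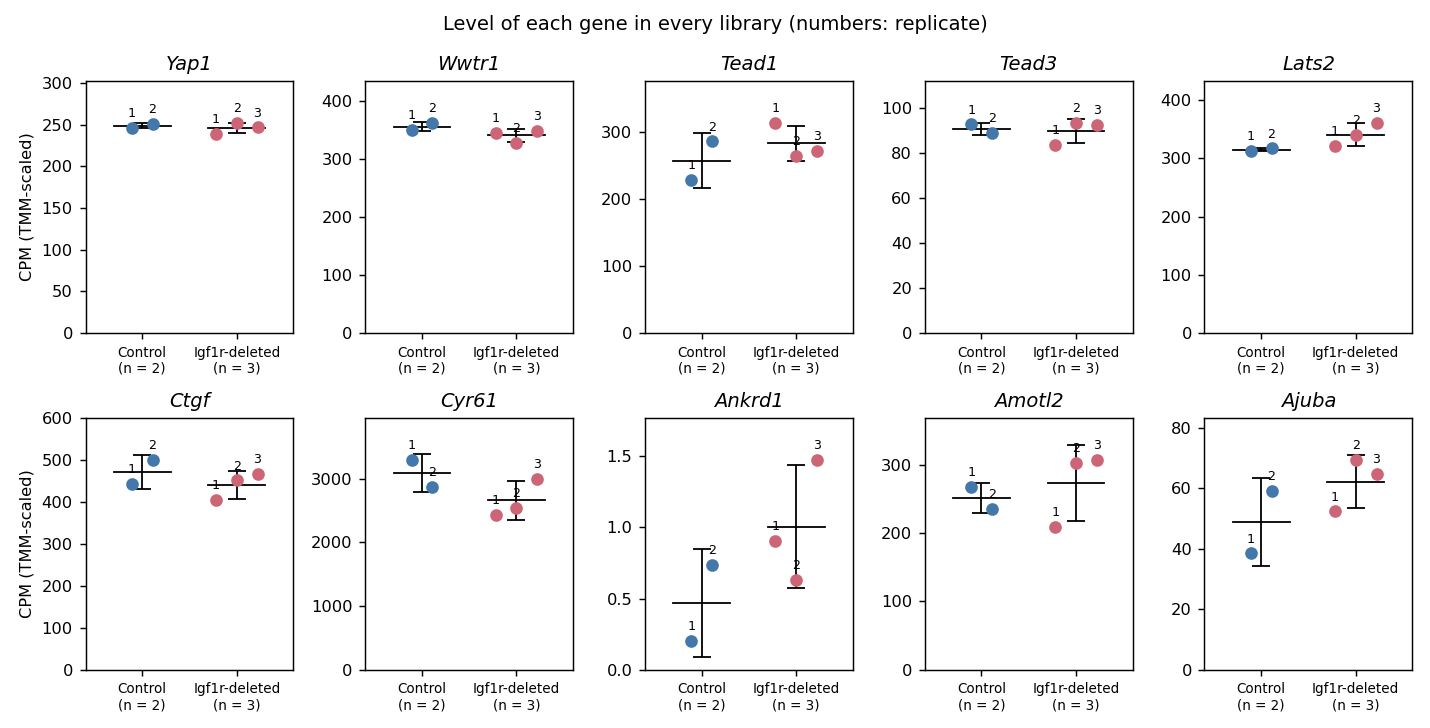
CPM of each of the 10 genes in every library (points, numbered by replicate), with the mean (line) and SD (bars) of 2 Control and 3 Igf1r-deleted libraries, on axes that start at 0. Yap1, Wwtr1, Tead3 and Lats2 were nearly level across all 5 libraries, Cyr61 was the most abundant of the 10 genes, and Ankrd1 did not exceed 1.47 CPM.

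Yap1, on chromosome 9 from 7931999 to 8004596 on the minus strand, encodes YAP. Its Control values were 246 and 251 CPM, and Igf1r-deleted replicates 1 to 3 stood at 239, 252 and 247 CPM. The 5 values lay within a factor of 1.05 of each other, and the genotypes overlapped. The log2 fold change was −0.02 (SE 0.09), and its 95% interval of −0.23 to 0.20 corresponds to a change between −14.8% and 14.7% (adjusted p = 0.952 in edgeR's F test). Intervals are the estimate plus and minus the standard error (SE) times the t quantile for edgeR's 7.27 degrees of freedom.

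Wwtr1, on chromosome 3 from 57455649 to 57575910 on the minus strand, encodes TAZ, the paralog of YAP. Its levels were 349 and 361 CPM in Control and 345, 327 and 348 CPM in Igf1r-deleted libraries. Every Igf1r-deleted library was below both Control libraries, as for 14.9% of all genes, but the highest of them lay only just below Control replicate 1. Its log2 fold change was −0.06 (95% interval −0.29 to 0.16, adjusted p = 0.798 by the same edgeR test). Scaled by library totals alone it was 0.0085, the opposite direction.

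Of the TEAD factors, which carry YAP and TAZ to DNA, Tead1 lies on chromosome 7 from 112679318 to 112906807 on the plus strand. It had 229 and 286 CPM in Control and 313, 264 and 271 CPM in Igf1r-deleted libraries. Both the lowest value and the second highest were Control libraries. Its log2 fold change of 0.14 (95% interval −0.18 to 0.45, adjusted p = 0.692 by the same edgeR test) became −0.02 without Control replicate 1, but 0.29 when Control replicate 2 was left out. Tead3, on chromosome 17 from 28331671 to 28350817 on the minus strand, had 92.7 and 88.9 CPM in Control and 83.4, 93.3 and 92.7 CPM in Igf1r-deleted libraries. Its values spanned a factor of 1.12 and overlapped between the genotypes (log2 fold change −0.02, 95% interval −0.25 to 0.21, adjusted p = 0.956 by the same edgeR test).

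Among the regulators, Lats2 encodes a kinase that phosphorylates YAP and TAZ and is itself a YAP target. It lies on chromosome 14 from 57689662 to 57758388 on the minus strand, where 42.4% of its exon length in GENCODE M21 also belongs to the gene model Gm49361 on the same strand, so the assignment of its reads is uncertain. Its levels were 313 and 317 CPM in Control and 322, 340.1 and 361 CPM in Igf1r-deleted libraries. All Igf1r-deleted libraries were above both Control libraries, as for 16.0% of all genes, by a log2 fold change of 0.11 (95% interval −0.12 to 0.35, adjusted p = 0.652 by the same edgeR test).

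Amotl2, on chromosome 9 from 102716672 to 102733418 on the plus strand, encodes an angiomotin that binds YAP and TAZ and is also their target. It had 267 and 235 CPM in Control and 209, 303 and 307 CPM in Igf1r-deleted libraries. Igf1r-deleted replicate 1 was the lowest library and replicates 2 and 3 the highest, so the Igf1r-deleted group enclosed the Control values. Together they gave a log2 fold change of 0.12 (95% interval −0.30 to 0.54, adjusted p = 0.793 by the same edgeR test), or of 0.28 without Igf1r-deleted replicate 1. With any 1 of Control replicate 2 and Igf1r-deleted replicates 2 and 3 left out, it was 0.02 to 0.03.

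Ajuba, on chromosome 14 from 54567472 to 54577558 on the minus strand, encodes a LIM protein that binds LATS kinases and limits their activity. It had 38.5 and 59.1 CPM in Control and 52.4, 69.4 and 64.8 CPM in Igf1r-deleted libraries. The lowest library was Control replicate 1, and Control replicate 2 lay between Igf1r-deleted replicates 1 and 3. Among the 9 genes other than Ankrd1 it had the log2 fold change farthest from 0, 0.35 (SE 0.20, 95% interval −0.12 to 0.82, adjusted p = 0.489 by the same edgeR test). Without Control replicate 1 it was 0.07, and 0.68 when Control replicate 2 was the one left out, so the Control libraries set its size.

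The targets Ctgf and Cyr61, which are widely used as readouts of YAP and TEAD, encode secreted matricellular proteins of the CCN family. Ctgf (Ccn2) lies on chromosome 10 from 24595442 to 24598683 on the plus strand. It had 444 and 501 CPM in Control and 405, 452 and 467 CPM in Igf1r-deleted libraries. The lowest library was Igf1r-deleted and the highest was Control, and 2 Igf1r-deleted libraries lay between the Control libraries. A log2 fold change of −0.10 (SE 0.12, 95% interval −0.37 to 0.17) corresponds to a change between −22.7% and 12.8% (adjusted p = 0.738 by the same edgeR test). Its size hung on the Control libraries, at −0.19 with replicate 1 of Control left out and −0.02 with replicate 2 left out. GENCODE M21 has a gene model on the opposite strand, Gm15270, over 23.2% of its exon length, and without strand their reads cannot be told apart.

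Cyr61 (Ccn1), on chromosome 3 from 145646976 to 145649981 on the minus strand, is also an immediate early gene. It had 3300.0 and 2878 CPM in Control and 2428, 2548 and 3003 CPM in Igf1r-deleted libraries. Igf1r-deleted replicates 1 and 2 lay below both Control libraries, and replicate 3 lay between them. This gave a log2 fold change of −0.22 (SE 0.15, 95% interval −0.57 to 0.14), a change between −32.6% and 9.99% (adjusted p = 0.565 by the same edgeR test). It stayed below 0 with each library left out, from −0.32 to −0.12. The 16 immediate early and dissociation-response genes had a median log2 fold change of −0.45, with all 16 below 0 and 10 at an unadjusted edgeR p under 0.05, where 6.75% of all genes were lower at this threshold. The median was −0.25 without Control replicate 1, and the part of this shift in Cyr61 was not tested.

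Ankrd1, on chromosome 19 from 36111961 to 36120099 on the minus strand, encodes a nuclear ankyrin-repeat protein of muscle and is a YAP target in many cells. Only 7 and 27 reads were counted on it in Control and 32, 25 and 53 in Igf1r-deleted libraries, or 0.20 and 0.74 CPM against 0.91, 0.63 and 1.47 CPM. Control replicate 1 was lowest, and Control replicate 2 lay above Igf1r-deleted replicate 2. Fitted on these counts, the log2 fold change was 1.08 (SE 0.66, adjusted p = 0.513 by the same edgeR test), with a 95% interval from −0.47 to 2.64, which includes 0 and changes of over 1 in size. Leaving out Control replicate 1 gave 0.43, and leaving out Control replicate 2 gave 2.28. The other 9 genes had intervals within −1 and 1.

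**Figure D2:**
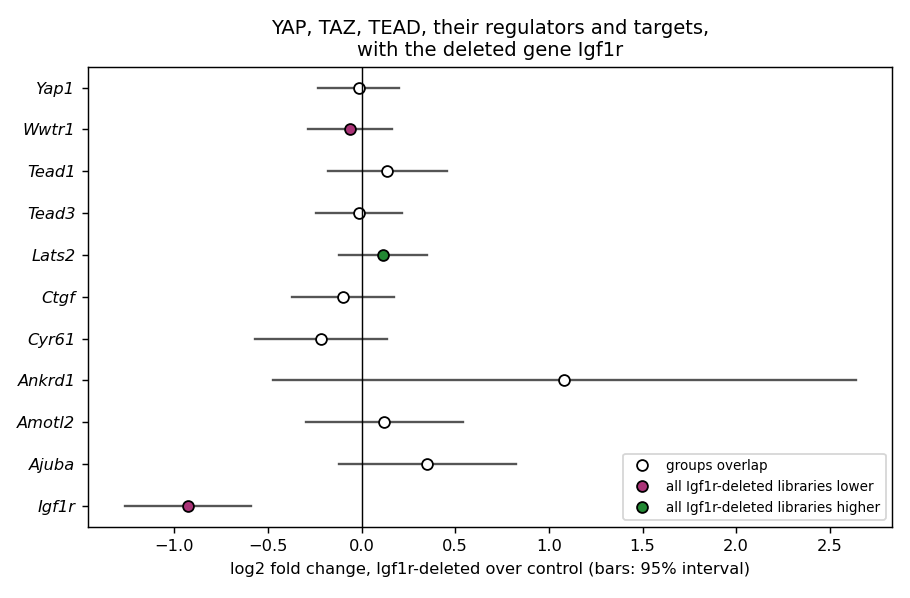
Log2 fold change (Igf1r-deleted over Control, edgeR) of each of the 10 genes and of Igf1r, with bars for the 95% interval from 2 and 3 libraries. Filled points mark genes whose genotypes did not overlap. All 10 intervals of the pathway genes include 0, that of Ankrd1 runs from −0.47 to 2.64, and that of Igf1r, from −1.26 to −0.59, does not include 0.

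How far single libraries set these values differed between the genes. With 1 library left out at a time, the log2 fold change moved from −0.04 to −0.0022 for Yap1, from −0.09 to −0.04 for Wwtr1 and from 0.07 to 0.15 for Lats2. For Ajuba and Ankrd1 the 2 Control libraries differed from each other by factors of 1.54 and 3.65. For Tead1 the factor was 1.25. In none of these fits did any of the 10 genes pass an adjusted edgeR p of 0.05.

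**Figure D3:**
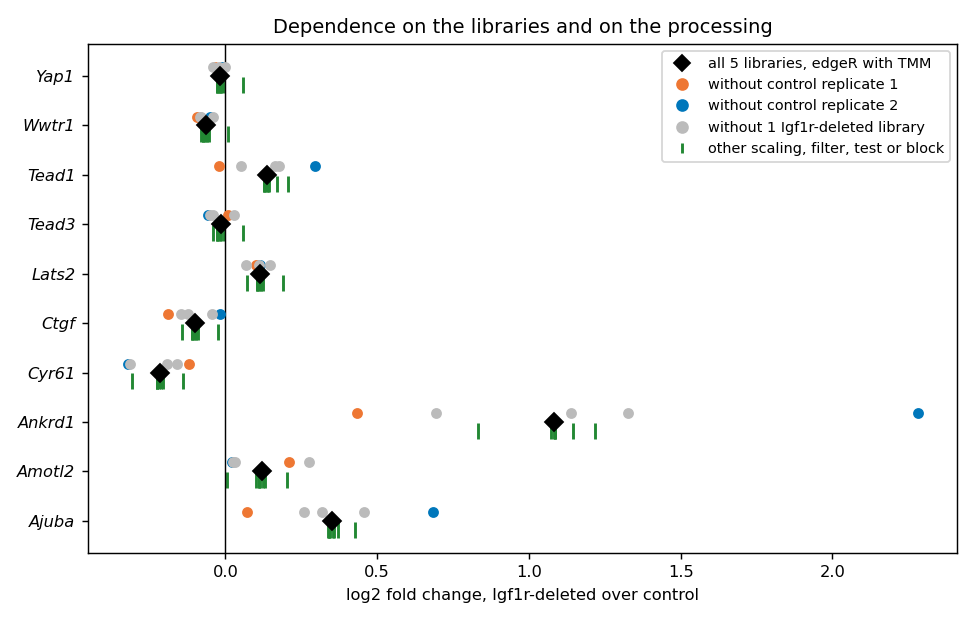
Log2 fold change (Igf1r-deleted over Control) of each of the 10 genes with all 5 libraries (diamonds), with 1 library left out (circles) and under other scalings, filters, tests or the replicate block (ticks). Yap1, Wwtr1, Tead3 and Lats2 stayed close to 0, whereas the values of Ankrd1 spanned 0.43 to 2.28 and those of Ajuba 0.07 to 0.68 as the Control libraries were left out.

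Levels of different genes were compared as CPM per kilobase of exon, using the union of all GENCODE M21 exons of a gene. This is an approximation where only some isoforms are transcribed. For Lats2 and Ctgf, levels and ratios are also uncertain, because their exons overlap other gene models. On this scale the order was Cyr61 (mean of 5 libraries 1402), Ctgf (159), Wwtr1 (72.4), Lats2 (47.4), Amotl2 (42.0), Yap1 (26.7), Tead1 (20.1), Ajuba (15.6), Tead3 (13.4) and Ankrd1 (0.274). Neighbours in this order did not overlap over the libraries except Lats2 with Amotl2, Tead1 with Ajuba, and Ajuba with Tead3. Within a library, Lats2 was above Amotl2 and Tead1 above Ajuba in 5 of 5 libraries, and Ajuba above Tead3 in 4 of 5.

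Some paralogs kept nearly the same proportion in all libraries on the same per-length scale, and others did not. Wwtr1 was 2.52 to 2.80 times Yap1 in all 5 libraries. Lats2 was 2.48 and 2.36 times Lats1 in Control and 2.58, 2.73 and 2.62 times in Igf1r-deleted libraries. These ratios did not overlap between the genotypes, and the difference was not tested. Of the summed TEAD level, Tead2 made up 39.1% to 41.4%, Tead1 31.8% to 38.9%, Tead3 20.96% to 26.1% and Tead4 at most 1.24%. The TEAD transcripts of these cells were thus mostly those of 3 genes, and Tead2, at 105 to 113 CPM, differed by −0.0065 on the log2 scale (SE 0.09). Cyr61 was 7.99 to 10.54 times Ctgf. Of the angiomotins, Amotl2 was 1.46 to 1.82 times Amotl1 and 9.08 to 15.8 times Amot. Limd1, of the same LIM family as Ajuba, was 7.79 and 5.07 times Ajuba in Control and 5.10, 3.34 and 3.67 times in Igf1r-deleted libraries, ratios that overlapped between the genotypes.

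**Figure D4:**
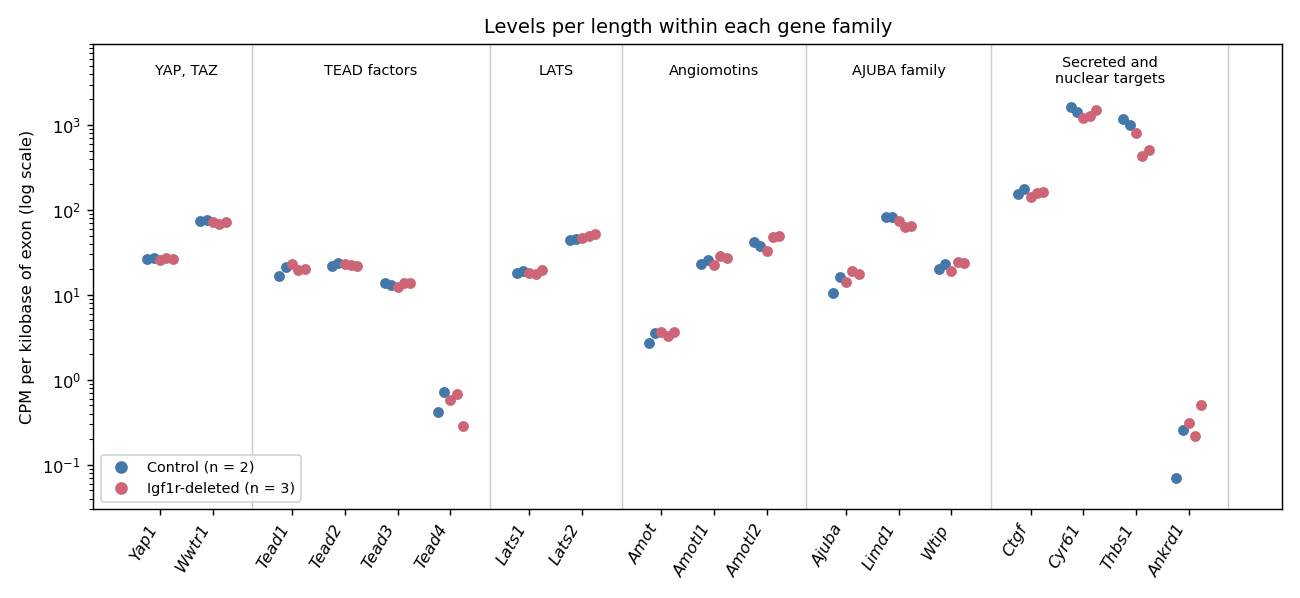
CPM per kilobase of exon (log axis) of the 10 genes and their paralogs in 2 Control and 3 Igf1r-deleted libraries, grouped by gene family. Wwtr1 lay above Yap1 and Lats2 above Lats1 in every library, Tead4 was the lowest TEAD gene, and Thbs1 is shown beside Cyr61, with lower values in the Igf1r-deleted libraries.

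Of 21 other Hippo kinases, scaffolds and upstream regulators, 8 had a log2 fold change below 0 and 13 above 0 (median 0.064). The core kinases and their adaptors Stk3, Stk4, Sav1, Lats1, Mob1a and Mob1b had overlapping genotypes, with log2 fold changes between −0.06 and 0.08. Over the whole list, the genotypes did not overlap for 6 of the 21 genes, where 31.0% of all genes did not. Of these, 3 were lower and 3 higher, the higher ones being Nf2, Taok2 and Taok3. In the list, 3 genes had an unadjusted edgeR p under 0.05, where 12.4% of all genes did, and none had an adjusted p under 0.05. All 3 were lower: Fat4, an atypical cadherin, Rassf1, a scaffold that binds MST kinases, and Limd1. Fat4 had 578 and 660.0 CPM in Control and 526, 390.4 and 389.8 CPM in Igf1r-deleted libraries (a log2 fold change of −0.51 with an SE of 0.16, adjusted p = 0.354 by the same edgeR test). Limd1 had 494 and 495 CPM in Control and 440.3, 383 and 393 CPM in Igf1r-deleted libraries (log2 fold change −0.29, adjusted p = 0.375 by the same edgeR test). Rassf1 had a log2 fold change of −0.30. Igf1r-deleted replicates 2 and 3 were the lowest libraries for Fat4 and Limd1. Without Control replicate 1, the log2 fold changes of Fat4, Limd1 and Rassf1 were −0.61, −0.29 and −0.20. When Igf1r-deleted replicate 2 or 3 was left out, 0 genes of the list had an unadjusted edgeR p under 0.05. The share of all genes in those fits is not given here.

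Among 6 other TEAD factors and VGLL cofactors, which compete with YAP for TEAD or assist it, Vgll1 and Vgll2 had at most 4 reads in a library and were not tested. Vgll3 had 95.2 and 99.5 CPM in Control and 131, 122 and 126 CPM in Igf1r-deleted libraries. The genotypes were separated by more than the spread within either, with a log2 fold change of 0.37 (SE 0.09, unadjusted p = 0.00456 and adjusted p = 0.354 by the same edgeR test). It was 0.34 to 0.39 with each library left out. Its adjusted p was 0.0314 in DESeq2's Wald test, and between that value and 0.9996 over all alternatives. Of the 4 tested genes of this list, Vgll3 alone had an unadjusted edgeR p under 0.05, where 12.4% of all genes did. All Igf1r-deleted libraries lay above both Control libraries for Vgll3, as for 16.0% of all genes.

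The 26 other genes known as YAP and TEAD targets did not share a direction. Their log2 fold changes were below 0 for 11 and above 0 for 15 (median 0.087), and 8 had an unadjusted edgeR p under 0.05, against 12.4% of all genes. Of these, 5 were lower (Thbs1, Igfbp3, Myc, Nuak2 and Axl; 6.75% of all genes were lower at this threshold) and 3 higher (Myof, Dock5 and Foxf2; 5.65% of all genes). None passed an adjusted p of 0.05 in edgeR, while Thbs1, Igfbp3 and Myof did in DESeq2's Wald test. In that test 1.70% of all genes with an adjusted p passed, and Areg was given none. The genotypes did not overlap for 14 of the 26, with 8 lower and 6 higher, where 31.0% of all genes did not. Without Control replicate 1, the log2 fold changes of Thbs1, Igfbp3, Myc and Myof were −0.79, −0.48, −0.50 and 0.85. Each was smaller in size than with all 5 libraries.

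Thbs1 encodes the matricellular protein thrombospondin-1. The study measured it, together with Ctgf and Cyr61, as YAP targets by qPCR of whole lung at P6. It reported each of them lower after Igf1r deletion, in other material than the sorted cells described here. Thbs1 was the most abundant of the 26 genes in CPM. Its values were 7191 and 6060.3 CPM in Control and 4875, 2622 and 3102 CPM in Igf1r-deleted libraries. All Igf1r-deleted libraries were below both Control libraries, and replicates 2 and 3 lay farthest below. In edgeR's F test this was a log2 fold change of −0.91 (SE 0.26, adjusted p = 0.354), with a DESeq2 adjusted p of 0.0291 and a range from there to 0.9996 over all alternatives. On the per-length scale Cyr61 was 1.38 and 1.43 times Thbs1 in Control and 1.498, 2.92 and 2.91 times in Igf1r-deleted libraries, so the secreted targets did not keep 1 ratio, and this difference was not tested.

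Igfbp3, which encodes a binding protein of insulin-like growth factors, had 264 and 151 CPM in Control and 141, 97.2 and 87.4 CPM in Igf1r-deleted libraries (log2 fold change −0.93, adjusted p = 0.354 by the same edgeR test). Myc, a transcription factor gene that is also an immediate early gene, had 60.1 and 35.7 CPM in Control and 32.4, 20.9 and 22.7 CPM in Igf1r-deleted libraries (log2 fold change −0.92, adjusted p = 0.354 by the same edgeR test). The adjusted p in DESeq2's Wald test was 0.0459 for Igfbp3 and 0.0502 for Myc, and over all alternatives it ran from 0.0322 and 0.0177 to 0.9996. For both genes Control replicate 1 was far above Control replicate 2, and without it the log2 fold changes were −0.48 and −0.50. Myof, which encodes the membrane repair protein myoferlin, had 56.6 and 61.3 CPM in Control and 135, 70.2 and 128 CPM in Igf1r-deleted libraries, where replicate 2 lay near the Control values (log2 fold change 0.91, adjusted p = 0.354 by the same edgeR test). Its adjusted p was 0.0469 in DESeq2's Wald test, and from there to 0.9996 over all alternatives. Arhgef17, a guanine nucleotide exchange factor gene and the second most abundant of the 26, had overlapping genotypes, with 602 and 690 CPM in Control and 681, 769 and 762 CPM in Igf1r-deleted libraries.

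**Figure D5:**
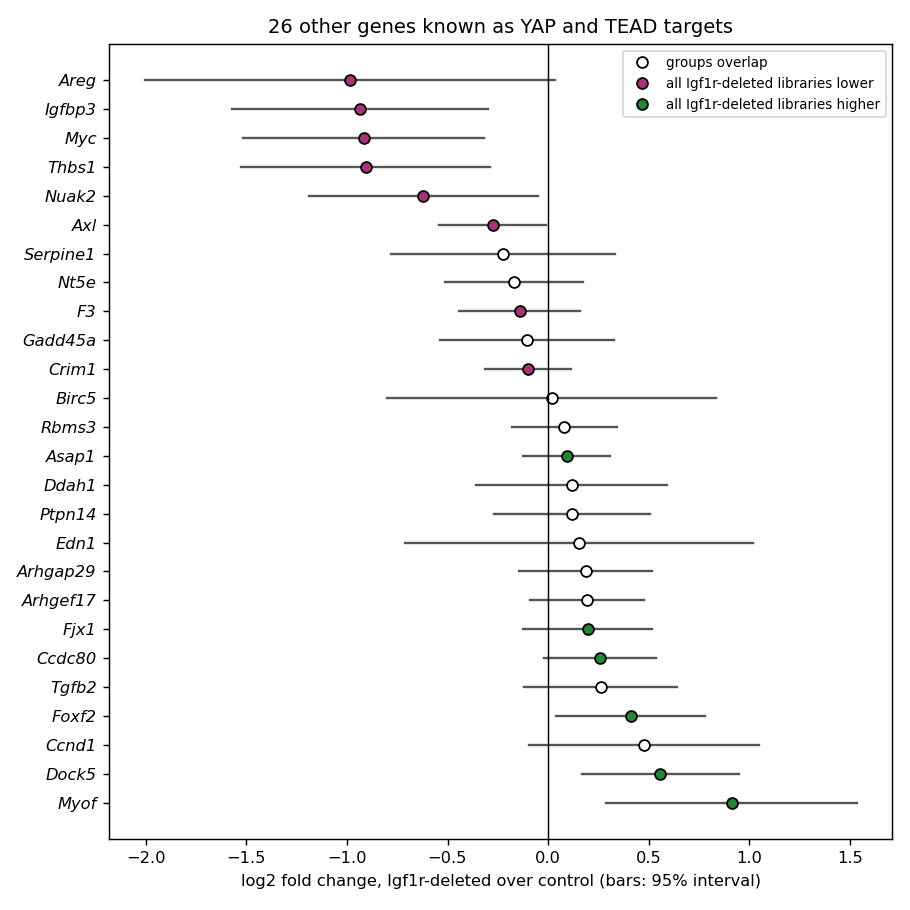
Log2 fold change (Igf1r-deleted over Control, edgeR) of the 26 other YAP and TEAD targets, ordered by value, with bars for the 95% interval from 2 and 3 libraries and filled points for genes whose genotypes did not overlap. The values spread to both sides of 0, with 11 genes below and 15 above, from −0.99 for Areg to 0.91 for Myof.

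The genes whose profile over the 5 libraries was most like those of the 2 CCN targets were found among 9099 other genes with a mean of at least 10 CPM, by the root mean square distance between centred log2 CPM profiles. For Ctgf these were Pou6f1 (distance 0.0234), Hdac11 (0.0237), C2cd2l (0.0254), Kmt2a (0.0257) and Plekhh2 (0.0308), where the median gene was at 0.170. For Cyr61 they included Pcmtd2 (0.0148), Zfp711 (0.0276), Appl2 (0.0290) and Rdh14 (0.0301), with a median of 0.211. None of the 10 pathway genes was among them, which says little, as only 5 of 9099 genes were taken for each target. Of the 10, Yap1 was nearest to Ctgf (0.0806) and Tead3 to Cyr61 (0.133), both below the median distance. The closest pair among the 10 was Yap1 with Tead3 (0.0455), followed by Yap1 with Wwtr1 (0.0559). These genes were nearly level across the libraries, so their small distances need not mean a shared pattern.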

How the data were processed

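RNA-Seq was analysed for 5 libraries, grouped and numbered by their sample titles. The authors used the NEBNext Ultra kit, Trim Galore for trimming, Bowtie2 for alignment to mm10 and the GenomicAlignments package for counting. The deposited values are raw counts of reads, with no normalization. Tool versions, the annotation and whether counting used strand are not given in the sources used here. The study tested counts with DESeq.

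Counts were tested with edgeR 4.0.16 (R 4.3.3): filterByExpr, TMM factors, the two-sided quasi-likelihood F test of genotype alone, and adjustment by Benjamini-Hochberg over 15298 of 23478 genes (4833 had 0 counts in every library). All 10 genes described passed the filter. Log2 CPM was taken with a prior count of 2. The alternatives were DESeq2 1.42.0, voom of limma 3.58.1, other scalings and filters, the replicate number as a block, and leaving out each library. DESeq2 gave no adjusted p for 3563 genes, which stayed out of its calls. The scripts were tested on simulated data.

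The depth was 35116766 to 37597857 counts per library. Within a genotype, the chi-square between libraries was 23.2 to 50.7 per degree of freedom, far above counting noise, and errors are therefore those between libraries. Whether they came from separate animals is not stated, so p-values measure the spread between these samples.

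The 10 genes and all lists were chosen with earlier results of these data known. Besides the 10 genes, Igf1r and Thbs1, the genes named were, for each list, up to 4 genes with the largest change among those with an unadjusted p under 0.05 and the 2 most abundant, and the 5 genes nearest to Ctgf and to Cyr61. Others were named after their values were seen. Results of 1 gene and 1 list are not reported here. Gene positions and exon lengths came from GENCODE M21, and promoter windows from RefSeq.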

Additional observations from a re-analysis of the deposited data

How the results depend on the processing

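None of the 10 genes passed an adjusted p of 0.05 under any alternative that gave it one. Ankrd1 had none in DESeq2. Scaling by library totals shifted the median of all genes by 0.073 (log2) and turned the log2 fold changes of Yap1 to 0.058, Wwtr1 to 0.0085, Tead3 to 0.060 and Tead2 to 0.066, leaving 2 of the 10 below 0 and 8 above. Tead2 was also above 0 with upper-quartile factors (0.0032) and with the replicate block (0.015). The genotypes of 1 of the 10 genes did not overlap with library totals or upper-quartile factors, and of 3 to 6 with 1 library left out. The share of 31.0% of all genes without overlap holds only for all 5 libraries with the main scaling. Under these other settings the share of all genes is not given here, so whether the 10 genes differ from it was not tested. The medians with library totals were 0.14 for the Hippo regulators and 0.16 for the other YAP and TEAD targets. DESeq2's Wald test called 200 genes.

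With the replicate number as a block, 136 genes had an adjusted p under 0.05, none of them among the 10 genes. Of the 10, 1 had an unadjusted p under 0.05, Ajuba (log2 fold change 0.34). Its unadjusted p was 0.0208 and its adjusted p 0.263 in edgeR's F test. The share of all genes at that unadjusted threshold in this fit is not given here. The block also brought the adjusted p of Igf1r to 0.0139, Igfbp3 to 0.0322, Myc to 0.0177 and Myl9 to 0.0395. Only numbers 1 and 2 occur in both genotypes, and the deviations of same-numbered libraries correlated by 0.208 and 0.121. For pairs of unlike number the correlations were −0.208 to 0.119, the highest for Control replicate 2 with Igf1r-deleted replicate 3. Deviations were taken from the mean of each genotype, so those of the 2 Control libraries mirror each other. An Igf1r-deleted library therefore correlates with both equally but for the sign, and pairs of unlike number are no separate comparison. The labels do not say that a number marks a shared litter or batch.

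With 1 library left out, the log2 fold change ran from −0.021 to 0.295 for Tead1, −0.057 to 0.029 for Tead3 and −0.063 to 0.036 for Tead2. Between 0 and 2 of the 10 genes had an unadjusted p under 0.05: Ankrd1 and Ajuba without Control replicate 2, and Amotl2 without Igf1r-deleted replicate 1. Over all genes, 433 (without Control replicate 1) to 3183 (without Igf1r-deleted replicate 1) had an unadjusted p under 0.05, and 0 to 45 an adjusted one. List medians ran from −0.013 to 0.113 (Hippo regulators), 0.018 to 0.270 (TEAD and VGLL), −0.072 to 0.081 (other targets), 0.21 to 0.48 (SRF and MRTF), −0.60 to −0.25 (immediate early) and −2.50 to −0.98 (glucocorticoid response). An arm left with 1 library is assumed to vary like the other. With a minimum of 10 counts in every library Ankrd1 was not tested. Depth limits Ankrd1, with at most 53 reads, and the number of libraries limits all 10 genes. In the alternatives, the cause of these changes was not tested.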

Other observations

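SRF and its coactivator MRTF are the other transcription pathway that follows tension in the actin cytoskeleton. The 13 genes listed for it were Srf, the MRTF genes Mkl1 and Mkl2, and genes of the cytoskeleton or of contraction. They lay on 1 side of 0, but they do not cover all SRF targets, so they do not show that SRF targets moved together. Immediate early and dissociation-response genes were listed apart, and all 16 of those were below 0. All 13 genes of the SRF and MRTF list had a log2 fold change above 0 (median 0.29). Of these, 6 had an unadjusted edgeR p under 0.05, where 5.65% of all genes were higher at this threshold. None of the 13 passed an adjusted p of 0.05 in edgeR. Without Control replicate 1, the log2 fold changes of Tagln and Actg2 were 0.32 and 0.34, against 0.59 and 0.50 with all libraries. Myl9, the smooth muscle myosin light chain gene, had 166 and 292 CPM in Control and 349.8, 461 and 393 CPM in Igf1r-deleted libraries (log2 fold change 0.81, adjusted p = 0.354 by edgeR's quasi-likelihood test). Acta2, the αSMA gene, had 407 and 655 CPM in Control and 764, 1067 and 907 CPM in Igf1r-deleted libraries (0.78, adjusted p = 0.354 by the same test). In DESeq2's Wald test the adjusted p was 0.0525 for Myl9 and 0.0465 for Acta2, and over all alternatives it ran from 0.0395 and 0.0465 to 0.9996. Control replicate 1 was the lowest library for both, and without it their log2 fold changes were 0.45 and 0.47. Acta2 and Tagln are also among 7 myofibroblast markers, of which 4 were above 0 and 3 below (median 0.16). Those below were Hhip (log2 fold change −0.47), Aspn (−0.23) and Pdgfra (−0.18). The part of cell type in the list's values was not tested. Actb, the most abundant of the list at 2837.5 to 3553 CPM, had a log2 fold change of 0.20. Whether this list differed from the YAP and TEAD targets was not tested.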
